A study of Mus musculus with 12 samples.

Results

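The 40 genes described here are expressed when cells copy their DNA or divide, 19 of them in S phase and 21 in G2 and mitosis. They were chosen by symbol, and all 40 were found among the 31053 genes listed for the E16.5 matrices and the 22597 listed for the P3 matrices, of which 22519 are shared. Another 163 genes of cell cycle lists were read beside them. The question was which cells of the mouse liver carry these RNAs before birth, at embryonic stage E16.5, and shortly after it, at postnatal day 3 (P3), when the liver is still a site of blood formation.

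Dissociated whole livers were profiled by droplet single-cell RNA sequencing, which counts unique molecular identifiers (UMIs) per gene and cell barcode. Embryos and pups came from crosses between Jag1Ndr/+ mice, and for either stage the labels name 2 individuals of each genotype, Jag1+/+, Jag1Ndr/+ or Jag1Ndr/Ndr. Ndr (Nodder) is a missense allele of Jag1, a ligand of Notch receptors, carried in every cell of the body. No Cre, transgene or treatment separated the groups. The Jag1Ndr/Ndr pups at P3 were picked out by jaundice. TrypLE was added to the dissociation at E16.5 alone, and dead cells were removed with magnetic beads.

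Several deposited matrices held the same cells. For E16.5, 1 matrix appears under 2 labels, as replicate 2 of Jag1+/+ and as replicate 2 of Jag1Ndr/+, and it enters once, under the name shared library. Among the P3 matrices, 53.4% to 100% of the smaller matrix's barcodes recurred in the larger one in 6 of 15 pairs, against 0.666% to 1.72% in the remaining 9. Libraries A and B are the P3 matrices labelled Jag1+/+ replicates 1 and 2. Most of their barcodes also stood in matrices labelled Jag1Ndr/Ndr, and library B also held all 15754 barcodes of the matrix labelled Jag1Ndr/+ replicate 2. The genotype of both is therefore unclear. Library C is the matrix labelled Jag1Ndr/Ndr replicate 1 without the barcodes of library A, and library D is the matrix labelled Jag1Ndr/+ replicate 1. The values below rest on 5 E16.5 libraries and 4 P3 libraries, with 15024 to 29034 barcodes that had at least 1000 UMIs and at most 15% mitochondrial UMIs. The median barcode held 5325 to 9256 UMIs at E16.5 and 2961 to 6235 at P3. Stage cannot be told apart from the gene list, the software version and the enzyme used, all of which differed between E16.5 and P3.

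A dividing cell first licenses its replication origins with the MCM helicase, then enters S phase under cyclin E with its kinase partner, and raises its supply of nucleotides and histone chaperones. Cyclin A and then cyclin B with Cdk1 carry the cell through G2 into mitosis, where Aurora and Polo-like kinases, kinesins and the anaphase-promoting complex separate the chromosomes. In textbook accounts, S genes are switched on by E2F factors, and G2/M genes are held silent in resting cells through the CHR element and activated through nearby CCAAT boxes. The fetal liver is known as the main site of red cell production, and its erythroblasts divide repeatedly while they fill with hemoglobin.

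The promoters of these genes are shown because the S and G2/M genes differ in the words they carry. RefSeq sequence of build GRCm38.p6, from 250 bases before to 50 bases after the RefSeq start, was at hand for 34 of the 40 genes. For Cdc6, Dut, E2f1 and Mcm7 the windows lay wholly inside the gene as placed by GENCODE, a second annotation. A word missing there says nothing about the start in that annotation. The E2F words searched were TTTCCCGC, TTTCGCGC, TTTGCCGC and TTTGGCGC, the CHR word was TTTGAA and the CCAAT word was CCAAT, each on both strands. Counts are per gene, and a gene holds a word if any of its listed promoters does. The 16 S genes had 17 promoters, since Mcm7 had a second. An E2F word lay in 6 of 16 S genes (37.5%) and in 1 of 18 G2/M genes (5.56%), against 704 of all 27025 genes in the table (2.605%). CHR lay in 1 of 16 S genes (6.25%) and in 13 of 18 G2/M genes (72.2%), against 20.2% of all genes. CCAAT lay in 9 of 16 S genes (56.25%) and 16 of 18 G2/M genes (88.9%), against 41.1% of all genes. Of the other S genes of the cell cycle lists, 18 of 45 had an E2F word (40%), and of the other G2/M genes, 41 of 64 had CHR (64.1%). CHR also lay in 12 of 45 other S genes (26.7%), above its share in the S genes described here, and CCAAT in 45 of 64 other G2/M genes (70.3%), below its share in the G2/M genes described here. A match shows the letters only, and binding was not measured.

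Mcm5 and Mcm6 stand for the S promoters and Cdk1, Cdc20, Ube2c and Kif11 for the G2/M promoters. Each stretch is written 5′ to 3′ on the strand of the gene, and capitals mark every E2F, CHR and CCAAT word, which reads ATTGG or TTCAAA where CCAAT or CHR lies on the other strand. In Mcm5 and Mcm6, a pair of E2F words on opposite strands overlap in the first run of capitals. The Mcm5 stretch lies on the plus strand at chr8:75109346-75109501, the Mcm6 stretch on the minus strand at chr1:128359706-128359825 and the Cdk1 stretch on the minus strand at chr10:69352913-69353053. The Cdc20 stretch lies on the minus strand at chr4:118437344-118437406, the Ube2c stretch on the plus strand at chr2:164769764-164769915 and the Kif11 stretch on the plus strand at chr19:37376327-37376378. All are upstream of the RefSeq start of the gene.
Mcm5: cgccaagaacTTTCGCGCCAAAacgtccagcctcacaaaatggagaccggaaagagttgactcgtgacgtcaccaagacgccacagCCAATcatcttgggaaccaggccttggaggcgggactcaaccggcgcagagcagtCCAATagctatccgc
Mcm6: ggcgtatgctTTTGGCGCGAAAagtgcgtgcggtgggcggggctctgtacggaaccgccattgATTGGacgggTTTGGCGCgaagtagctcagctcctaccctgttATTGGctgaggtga
Cdk1: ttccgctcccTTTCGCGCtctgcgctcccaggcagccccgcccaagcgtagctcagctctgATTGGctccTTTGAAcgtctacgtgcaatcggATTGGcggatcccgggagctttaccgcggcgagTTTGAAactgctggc
Cdc20: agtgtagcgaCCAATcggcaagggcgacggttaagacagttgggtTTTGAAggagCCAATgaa
Ube2c: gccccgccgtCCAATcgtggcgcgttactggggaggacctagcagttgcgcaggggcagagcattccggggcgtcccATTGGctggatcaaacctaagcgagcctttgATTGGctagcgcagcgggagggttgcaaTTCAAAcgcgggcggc
Kif11: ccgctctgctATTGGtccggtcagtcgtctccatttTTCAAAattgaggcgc
Cdk1 is the G2/M gene that carries an E2F word as well as CHR and CCAAT. It was among the 5 genes lower at P3 in all 9 of the broad classes tested, for which no share of all genes was counted.

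Cells were clustered within each stage without the cell cycle genes, and clusters were named "-like" from marker genes. Across the classes, the summed level of the 40 genes was highest in blood precursors at both stages and low in mature neutrophil-like and hepatocyte-like cells, joined at P3 by macrophage-like cells. The place of late erythroid-like cells depended on the scale: they stood among the lowest classes per total UMI, and at 11045 ± 669 CPM at E16.5 and 7612 ± 2749 at P3 with globin left out of the total, where hepatocyte-like cells stood at 3148 and 960. Levels are in CPM, counts scaled to the total UMIs of the class in a library, given as mean ± SD over 5 libraries at E16.5 and 4 at P3, and they are a description, since the classes come from the same cells. Erythroblast-like cells stood at 7911 ± 1266 CPM at E16.5 and 12784 ± 1506 at P3. Pro-B and pre-B-like cells stood at 7623 ± 950 and 10093 ± 1287 CPM, and monocyte-like cells at 6331 ± 564 and 6661 ± 235.

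**Figure D1:**
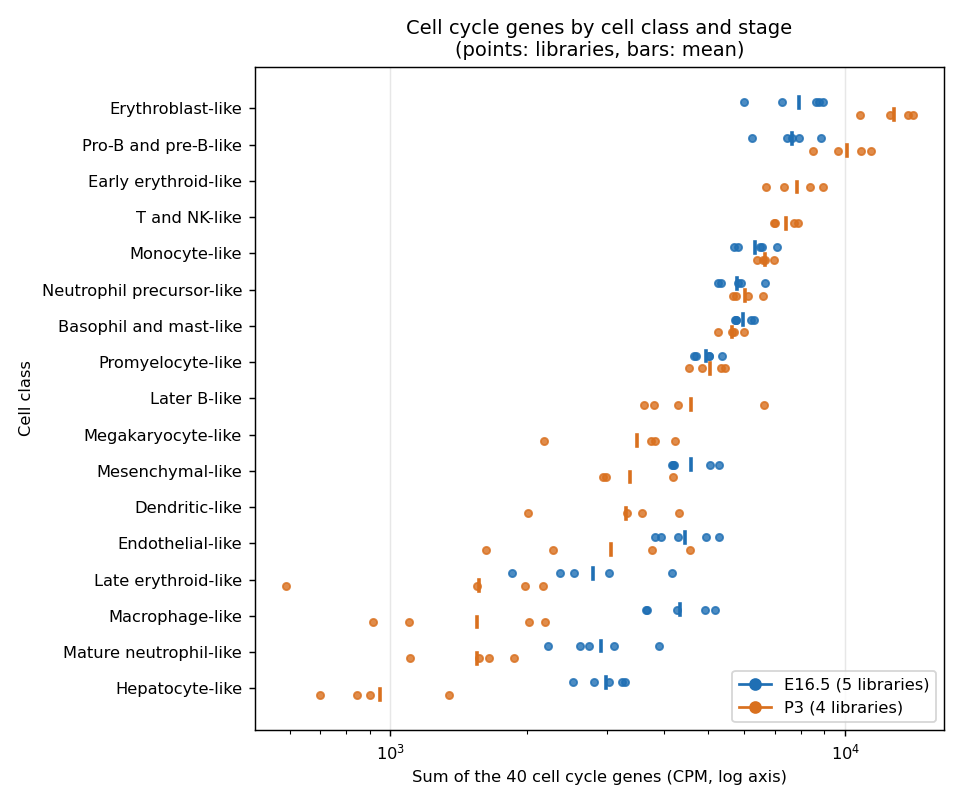
Summed level of the 40 genes (CPM, log axis) in each class, with 1 point per library, bars at the mean, E16.5 in blue and P3 in orange. Erythroblast-like and pro-B and pre-B-like cells lie at the top at both stages, and hepatocyte-like cells move from 2973 CPM at E16.5 to 949 at P3.

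The 3 myeloid precursor classes had means from 4951 to 6032 CPM over both stages. Basophil and mast-like cells stood at 5947 ± 280 CPM at E16.5 and 5647 ± 312 at P3, neutrophil precursor-like cells at 5794 ± 563 and 6032 ± 422, and promyelocyte-like cells at 4951 ± 283 and 5039 ± 426. The first 2 of these differed from each other by less than their spread over libraries at E16.5. Mesenchymal-like, endothelial-like and macrophage-like cells followed at E16.5 with 4574 ± 544, 4450 ± 638 and 4335 ± 704 CPM, again within their spread of each other. Hepatocyte-like (2973 ± 313 CPM), mature neutrophil-like (2911 ± 631) and late erythroid-like cells (2790 ± 878) lay below them and within their spread of each other on the scale of total UMIs.

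At P3 the order opened up at its lower end. Endothelial-like cells stood at 3053 ± 1342 CPM, mesenchymal-like cells at 3369 ± 706 (n = 3), macrophage-like cells at 1553 ± 640 and hepatocyte-like cells at 949 ± 279. Late erythroid-like and mature neutrophil-like cells stood at 1570 ± 702 and 1546 ± 322 CPM, globin included in the total. The low place of hepatocyte-like and macrophage-like cells rests on limits set after the clusters were seen, since with the left-out clusters kept they stood at 3154 and 3243 CPM. Early erythroid-like cells, which were named only at P3, stood at 7832 ± 1012 CPM. T and NK-like cells (7392 ± 460 CPM), later B-like cells (4586 ± 1399) and dendritic-like cells (3303 ± 965) were also separate only at P3. Megakaryocyte-like cells stood at 3488 ± 899 CPM at P3, and the E16.5 cluster of that name (274 cells, 43.2% globin) was left out for its globin.

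The single libraries show how firmly each class held its level. Hepatocyte-like cells had 2809, 3229, 3021, 3281 and 2524 CPM in the E16.5 libraries, ordered as Jag1+/+ replicate 1, then the shared one, then Jag1Ndr/+ replicate 1, then the Jag1Ndr/Ndr pair by number, and 1348, 845, 701 and 902 CPM in P3 libraries A to D. Monocyte-like cells had 6563, 7064, 5824, 5702 and 6504 CPM, then 6664, 6410, 6975 and 6594 CPM. The ranges of the stages did not overlap in hepatocyte-like cells and did in monocyte-like cells. Macrophage-like cells had 4261, 4923, 3655, 3657 and 5178 CPM at E16.5 and 915, 1098, 2018 and 2183 CPM at P3. Endothelial-like cells had 3933, 5277, 4291, 3809 and 4939 CPM, then 1624, 2273, 3759 and 4555 CPM. Libraries A and B were lower than C and D in both of these classes, and also in erythroblast-like cells, where the P3 values were 10770, 12516, 13748 and 14104 CPM.

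Most genes of both phases had their highest mean in the same few classes, but the libraries of the highest class lay clear of those of the next for only 1 of 40 genes at E16.5 and 9 of 40 at P3. Highest and lowest classes were found for the 40 genes only. No share of all genes stands beside these counts, and nothing particular to the 40 genes is read from them. At E16.5, 12 of the 19 S genes were highest in erythroblast-like cells, 4 in pro-B and pre-B-like cells, and Chaf1b, Mcm3 and Mcm6 in basophil and mast-like cells. Of the 21 G2/M genes, 11 were highest in pro-B and pre-B-like cells, 6 in erythroblast-like cells, and Aurkb, Bub1, Kif23 and Plk1 in monocyte-like cells. At P3, erythroblast-like cells were the highest class for 13 S and 12 G2/M genes, pro-B and pre-B-like cells for 2 and 9, and early erythroid-like cells for 4 S genes. At the other end, late erythroid-like cells were the lowest class at E16.5 for 18 of 21 G2/M genes per total UMI, a scale that includes their globin, while at P3 hepatocyte-like cells were the lowest for 15 of 21.

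The balance of S to G2/M genes differed between classes. Within a library, the ratio of the summed S level to the summed G2/M level was 0.96 to 1.10 in early erythroid-like cells at P3, 0.51 to 0.66 in erythroblast-like cells and 0.12 to 0.17 in late erythroid-like cells, so at P3 the S genes took a smaller share along the named erythroid classes. In the neutrophil lineage at P3 the ratio was 0.70 to 0.95 in promyelocyte-like cells, 0.29 to 0.36 in neutrophil precursor-like cells and 0.14 to 0.26 in mature neutrophil-like cells. These orders held only in part at E16.5. There the range of erythroblast-like cells, 0.45 to 0.72, overlapped that of late erythroid-like cells, 0.34 to 0.51. Within each library the erythroblast-like ratio was still the higher, in places narrowly. Promyelocyte-like cells, at 0.63 to 0.70, lay above neutrophil precursor-like cells, at 0.38 to 0.41. The latter lay below mature neutrophil-like cells, at 0.42 to 0.51, against the P3 order. The E16.5 ranges of late erythroid-like and mature neutrophil-like cells lay above their P3 ranges, and in the latter erythroid RNA was estimated at 56.7% to 69.7% of the E16.5 level, a part that was not tested in the ratio. Monocyte-like cells ranged from 0.42 to 0.48 (E16.5) and from 0.47 to 0.54 (P3).

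Late erythroid-like cells at P3 were not uniform. The cluster with the least globin RNA, 62.9% of its UMIs, held the 40 genes at 7236 CPM, while the other 3 clusters, with 77.4% to 88.4% globin, held them at 919, 509 and 346 CPM. The ratio of S to G2/M genes was 0.08 to 0.13 over libraries in the cluster with the least globin and 0.31 to 0.54 in that with the most. The ratio of the class therefore does not stand for each of its clusters. At E16.5 the late erythroid-like clusters ran from 1693 to 4026 CPM. Erythroblast-like clusters had 19.9% to 48.4% globin at E16.5 and 9.58% and 44.2% at P3. They too differed at P3, with a ratio of 0.82 to 0.95 in the cluster with less globin and 0.31 to 0.44 in the other. The latter range overlaps that of the late erythroid-like cluster with the most globin.

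Erythroid RNA in the other classes differed between the stages, and whether it came from free RNA, doublets or attached cells was not tested. Globin, which mature neutrophils do not make, took 17.8% to 29.8% of the UMIs of mature neutrophil-like cells at E16.5 and 0.5% to 0.9% at P3. If all globin in a class came with RNA of the library's erythroid cells, that RNA would account for 56.7% to 69.7% of the level of the 40 genes in mature neutrophil-like cells at E16.5 and 3.7% to 13.9% at P3. The same estimate was 10.9% to 19% in hepatocyte-like cells at E16.5 and 7.8%, 13.1%, 57.7% and 30.0% in P3 libraries A to D. The estimate was subtracted from the 40 genes alone, and the total kept the erythroid UMIs, a larger part at E16.5 than at P3. The levels left were not rescaled and are therefore set too low, more so at E16.5. On that scale hepatocyte-like cells stood at 2178 to 2917 CPM at E16.5 and 297 to 1243 at P3. Macrophage-like cells stood at 2790 to 4340 and 821 to 1994 CPM, so neither class overlapped between the stages. Mature neutrophil-like cells stood at 905 to 1303 CPM at E16.5 and 948 to 1760 at P3, which overlap on that scale. In endothelial-like cells the estimate was 27.2% to 37.6% of the level at E16.5 and 26.2% to 60.7% at P3. What was left, not rescaled, stood at 2773 to 3491 CPM and 732 to 2774 CPM. In mesenchymal-like cells the estimate was 32.7% to 59.7% and 15.8% to 40.9%. What was left there, not rescaled, stood at 1683 to 2851 CPM and 1881 to 2475 CPM (n = 3). Whether the stages overlap in these classes is not read from these values.

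**Figure D2:**
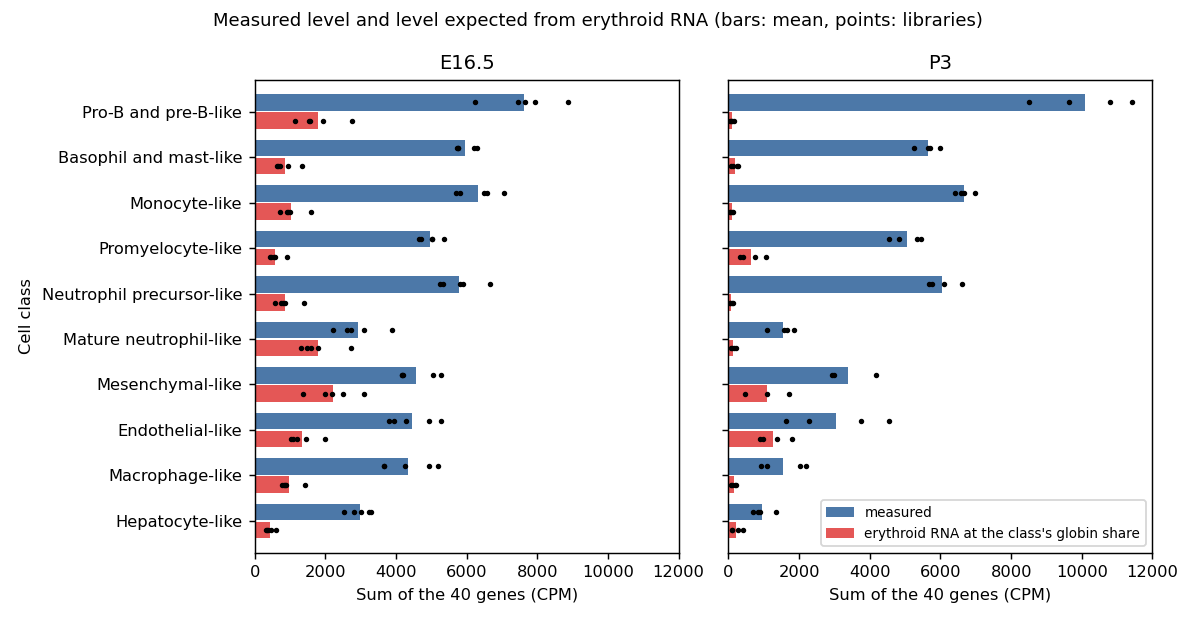
Measured level of the 40 genes beside the level expected from erythroid RNA at the globin share of each class (CPM), with bars at the mean and points for libraries, at both stages. In mature neutrophil-like cells at E16.5 the expected level makes up 56.7% to 69.7% of the measured one, and in monocyte-like cells at P3 0.8% to 2.0%.

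Counted per cell, the classes fell in a similar order at P3. Each cell was thinned to 2000 UMIs, and the share with at least 2 of the 21 G2/M genes was averaged over libraries. It was 97.0% in erythroblast-like cells (93.8% to 98.8% over libraries), 82.6% in pro-B and pre-B-like cells (68.0% to 94.0%) and 73.7% in monocyte-like cells (69.0% to 75.6%). It was 30.2% in endothelial-like cells (13.9% to 45.5%), 19.1% in macrophage-like cells (10.6% to 31.7%) and 13.1% in hepatocyte-like cells (7.59% to 24.4%). Mature neutrophil-like cells, which do not divide, gave 18.1% (13.2% to 21%). The ranges in macrophage-like and hepatocyte-like cells overlapped theirs, and no dividing cells are read from these G2/M shares. Without thinning, the shares were 99.1%, 71.4%, 81.8%, 47.0%, 37.1%, 30.7% and 23.5% in the same order of classes. Median depth over libraries was 2045 to 8588 UMIs in hepatocyte-like and 2284 to 5026 in mature neutrophil-like cells, and 215 of 570 hepatocyte-like and 333 mature neutrophil-like cells fell under 2000 UMIs and were left out.

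For the S genes, hepatocyte-like, macrophage-like and endothelial-like cells all lay above mature neutrophil-like cells. At P3 the share of cells with at least 2 of the 19 S genes was 97.8% in early erythroid-like, 85.6% in promyelocyte-like, 77.8% in erythroblast-like and 61.5% in monocyte-like cells. It was 38.5% in endothelial-like (24.8% to 53.5% over libraries), 26.5% in macrophage-like (15.7% to 37.6%) and 16% in hepatocyte-like cells (10% to 21.5%), against 6.46% in mature neutrophil-like (5.81% to 7.80%) and 4.65% in late erythroid-like cells (1.38% to 7.63%). Erythroid RNA was not taken off these shares. In libraries A to D its estimate was 42.5 of 541, 42.1 of 383, 164 of 303 and 98.2 of 358 CPM of the S level in hepatocyte-like cells. In endothelial-like cells it was 360 of 855, 524 of 1015, 400 of 1364 and 650 of 1699 CPM. Its part in the S shares was not tested. At E16.5 the G2/M share was 82.9% even in mature neutrophil-like cells (73.1% to 91.8%). It was 66.3% in hepatocyte-like and 78.9% in macrophage-like cells. The estimate of erythroid RNA differed widely between these classes, at 56.7% to 69.7% in mature neutrophil-like and 10.9% to 19% in hepatocyte-like cells, so the E16.5 shares are not ordered against each other.

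The stages were then compared within each class, with counts summed per library and edgeR's quasi-likelihood test adjusted over all pairs of class and gene. In hepatocyte-like, macrophage-like, endothelial-like and mesenchymal-like cells, 113 of the 157 tested pairs of class and gene were lower at P3 and 0 were higher. Of all genes in these 4 classes, 15.6% to 25% were lower and 14.8% to 22.4% higher. In the erythroid, B, monocyte, neutrophil and basophil and mast classes, 39 of 200 pairs were higher and 53 lower. Of all genes in these classes, 24.3% to 26.9% were higher and 24.5% to 26.6% lower. The count of higher pairs thus lay below its share, and that of lower pairs within it. Log2 changes below are given with their standard error, and n is 5 libraries against 4, or against 3 in mesenchymal-like cells, where library D held too few cells.

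In hepatocyte-like cells 35 of the 40 genes fell and 0 rose, where 20.8% of all tested genes fell and 21.4% rose, and the median change of the 40 was -1.27 (log2). All 4 genes of the mitotic cyclins and Cdk1, all 4 of nucleotide supply, all 4 of the spindle group and 7 of 9 helicase and licensing genes fell. The 5 that did not pass the test were Chaf1b, Gins2, Mcm7, Pcna and Plk1. With the left-out clusters of hepatocyte markers kept, 13 genes were lower instead of 35. The class rests on 578 cells at E16.5 and 570 at P3, since the larger cluster with hepatocyte markers at E16.5 (3254 cells, 49.0% globin) was left out. Their median depth was 20750 to 29671 UMIs over the E16.5 libraries and 2045 to 8588 over the P3 libraries, and its part in the result was not tested.

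In macrophage-like cells 35 of 40 fell and 0 rose, with a median of -1.57, beside 25% of all genes lower and 22.4% higher. Chaf1b, E2f1, Gins2, Kif23 and Mcm3 did not pass. In endothelial-like cells 26 of 40 fell, with a median of -0.84, beside 17.4% of all genes lower, and 0 rose, beside 15.2% higher. There the split between phases was wide, with 18 of 21 G2/M genes and 8 of 19 S genes lower. In mesenchymal-like cells 17 of 37 tested genes fell, with a median of -0.79, beside 15.6% lower and 14.8% higher among all genes, and 0 rose. With the erythroid RNA estimate subtracted, 7 were lower in mesenchymal-like cells.

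**Figure D3:**
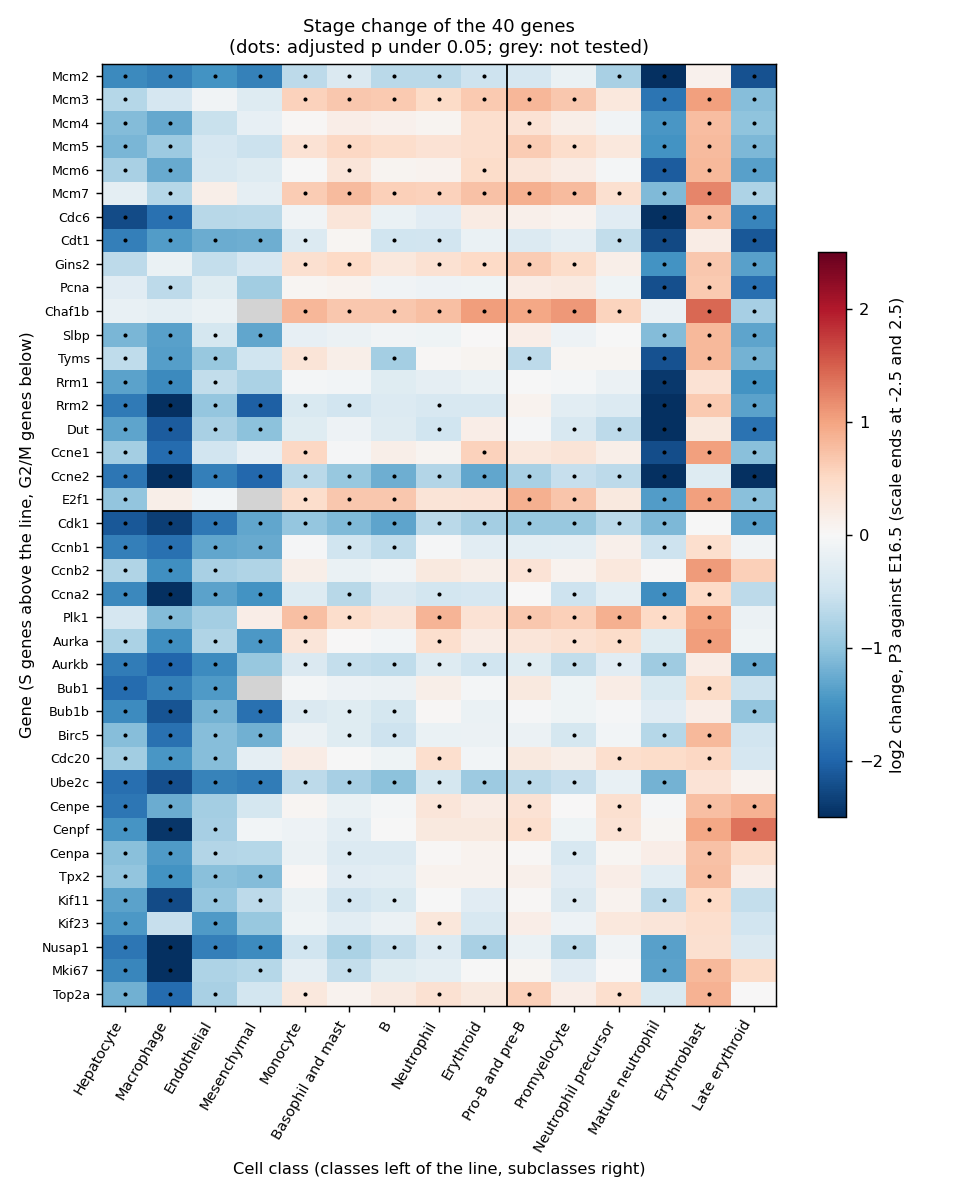
Log2 change from E16.5 to P3 of each of the 40 genes in 9 classes (left) and 6 classes of the erythroid, neutrophil and B lineages (right), with dots at adjusted p under 0.05, grey where a gene was not tested, and a colour scale that ends at 2.5 in each direction. Hepatocyte-like and macrophage-like cells are lower for 35 genes each, and erythroblast-like cells are higher for 29.

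The blood lineages moved in both directions. In monocyte-like cells 11 genes rose and 9 fell, beside 24.7% and 25.7% of all genes, and the median change was -0.05. In the neutrophil class 10 rose and 10 fell (24.9% and 24.5% of all genes), and in the erythroid class 6 rose and 6 fell (26.9% and 25.4%). In the B class 4 rose and 12 fell (26.8% and 26.6%), and in basophil and mast-like cells 8 rose and 16 fell (24.3% and 25.7%). The phases parted in basophil and mast-like cells, with 7 S genes higher and 3 lower against 1 G2/M gene higher and 13 lower. The leading genes of that cluster included the megakaryocyte markers Pf4 and Ppbp at E16.5 and the promyelocyte markers Ctsg and Mpo at P3, and their part in the counts was not tested. The B class held pro-B and pre-B-like cells alone at E16.5 and also 3965 later B-like cells at P3, whose level was lower (4586 against 10093 CPM), so the mix of B cells and a change within them cannot be told apart in its counts. Without library B, 33 pairs in these 5 classes were lower instead of 53. Over all cells of a library, without the clusters rich in doublets, 4 genes were higher (Chaf1b, Mcm3, Mcm7 and Plk1) and 7 lower (Aurkb, Ccna2, Ccne2, Cdk1, Mcm2, Nusap1 and Ube2c), beside 26.6% and 25.5% of all genes. That count of higher genes was 8 without library A, and that of lower genes was 11 without library C. With the clusters rich in doublets, nearly all of them from P3, kept as well, 4 were higher and 10 lower.

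Within the erythroid lineage the classes moved apart. In erythroblast-like cells 29 of 40 genes rose and 0 fell, with a median of 0.74, beside 22.1% of all genes higher and 25% lower. In late erythroid-like cells all 19 S genes fell, with a median of -1.34, along with 3 of 21 G2/M genes, and Cenpe and Cenpf rose. Among all genes of that class 25.3% fell and 26.6% rose. Early erythroid-like cells formed a class only at P3, so a different mix of maturation stages and a change within a stage cannot be told apart.

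In mature neutrophil-like cells 18 of 19 S genes and 9 of 21 G2/M genes fell, beside 27.2% of all genes, and Plk1 rose, beside 24%. The median of the S genes was -2.17 and that of the G2/M genes -0.38. With the erythroid RNA estimate subtracted, 15 genes were lower instead of 27. Neutrophil precursor-like cells had 8 genes higher and 6 lower (24.6% and 23.4% of all genes), promyelocyte-like cells 8 and 10 (22.9% and 23.1%), and pro-B and pre-B-like cells 12 and 5 (25.2% and 25.6%).

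Across the 9 broad classes, 5 genes were lower at P3 in each, namely Mcm2, Ccne2, Cdk1, Ube2c and Nusap1. In erythroblast-like cells, a part of the erythroid class, the mean of Ube2c went from 684 to 900 CPM. There Nusap1 went from 255 to 352 CPM, Mcm2 from 167 to 181 and Ccne2 from 63.1 to 51.9, and Cdk1 is given below. Mcm3, Mcm7 and Chaf1b were higher in 5 classes each. How many of all genes were lower in every class, or higher in 5, was not counted. Nothing particular to the genes named here is therefore read from the number of classes. Mcm2, Mcm3 and Mcm7 are subunits of the same helicase and did not move together.

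Mcm7, a subunit of the replicative helicase, stood in erythroblast-like cells at 186, 169, 139, 221 and 129 CPM at E16.5 and 308, 381, 504 and 409 CPM at P3, with every P3 library above every E16.5 library (log2 change 1.22 ± 0.14, edgeR adjusted p = 3.4e-05). In monocyte-like cells Mcm7 stood at 105, 124, 100, 112 and 110 CPM, then 199, 169, 199 and 190 CPM, again without overlap (0.63 ± 0.09, adjusted p = 0.00013). In hepatocyte-like cells it stood at 50.1, 65.5, 61.6, 77.5 and 45.5 CPM, then 54.1, 31.2, 36.1 and 37.3 CPM, which overlap (-0.25 ± 0.20, adjusted p = 0.34). The partner subunit Mcm2 moved opposite to Mcm7 in monocyte-like cells and fell in hepatocyte-like cells as well. Mcm2 in hepatocyte-like cells stood at 45.3, 57.7, 55.1, 69.4 and 47.2 CPM, then 18.0, 11.2, 16.9 and 11.9 CPM (-1.58 ± 0.22, adjusted p = 5.6e-05). In monocyte-like cells Mcm2 stood at 105, 123, 73.6, 89.4 and 83.5 CPM, then 75.4, 54.5, 68.3 and 67.3 CPM, with library A inside the E16.5 range (-0.66 ± 0.13, adjusted p = 0.0011).

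Among the fork and chromatin genes, Chaf1b encodes a subunit of the chaperone that loads histones behind the fork and Slbp the protein that binds histone mRNA. Chaf1b in erythroblast-like cells stood at 25, 20.3, 17.6, 31.4 and 16.3 CPM at E16.5 and 44.2, 55.8, 73.9 and 68.8 CPM at P3 (1.44 ± 0.16, edgeR adjusted p = 2.2e-05). In promyelocyte-like cells it stood at 14.8, 14.6, 13.3, 15.3 and 14.9 CPM, then 29.2, 36.4, 34.9 and 35.6 CPM (1.08 ± 0.12, adjusted p = 8.8e-06), so each P3 library was clear of the narrow E16.5 range. Slbp in macrophage-like cells stood at 128, 164, 122, 148 and 152 CPM, then 48.2, 53.7, 80.1 and 76.9 CPM (-1.35 ± 0.15, adjusted p = 2e-05). In erythroblast-like cells Slbp stood at 282, 296, 183, 322 and 218 CPM, then 358, 445, 561 and 478 CPM (0.80 ± 0.14, adjusted p = 0.00059). The classes thus moved in opposite directions for Slbp, and the libraries did not overlap in either.

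Dut, which breaks down dUTP and keeps uracil out of DNA, stands for nucleotide supply. In macrophage-like cells Dut stood at 109, 193, 167, 208 and 122 CPM at E16.5 and 33.4, 30.4, 70.1 and 43.4 CPM at P3 (-2.08 ± 0.27, edgeR adjusted p = 6.2e-05). In erythroblast-like cells Dut spread from 218 to 874 CPM at E16.5 and from 450 to 632 CPM at P3 and did not pass the test (0.25 ± 0.29, adjusted p = 0.50). Early erythroid-like cells held Dut at 1048, 920, 960 and 817 CPM in P3 libraries A to D, above every erythroblast-like value of that stage. Rrm2, the regulatory subunit of ribonucleotide reductase, had the largest fall of the 40 genes in macrophage-like cells, from 143, 182, 120, 146 and 181 CPM to 14.8, 10.2, 29.2 and 29.2 CPM (-3.19).

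Ccne1 and Ccne2 encode the cyclins that start S phase. In macrophage-like cells Ccne1 stood at 25.8, 26.9, 23.8, 26.5 and 27.8 CPM at E16.5 and 5.32, 6.37, 11.2 and 10.7 CPM at P3 (-1.93 ± 0.21, edgeR adjusted p = 1.3e-05), a call lost with the left-out clusters kept (-0.67). Ccne2 stood at 24.4, 43.6, 23.3, 27.9 and 33.8 CPM, then 3.25, 3.61, 3.72 and 8.55 CPM (-2.99 ± 0.27, adjusted p = 2.8e-06). The cyclins parted in erythroblast-like cells. There Ccne1 stood at 75.7, 58.3, 50.7, 93.5 and 42.8 CPM, then 95.1, 117, 171 and 139 CPM (1.02 ± 0.17, adjusted p = 0.00054). Ccne2 stood at 55.1, 83.3, 44.1, 65.9 and 67.2 CPM, then 53.8, 51.3, 44.5 and 58.1 CPM (-0.32 ± 0.17, adjusted p = 0.15), with all 4 P3 libraries inside the E16.5 range.

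Cdk1, the kinase that drives mitosis, stood in hepatocyte-like cells at 86.4, 133, 111, 81.0 and 97.3 CPM at E16.5 and 32.4, 15, 7.22 and 8.47 CPM at P3 (-2.12 ± 0.31, edgeR adjusted p = 9.1e-05). In monocyte-like cells Cdk1 stood at 188, 192, 185, 169 and 175 CPM, then 136, 83.9, 120 and 71.8 CPM (-0.96 ± 0.18, adjusted p = 0.00067). In erythroblast-like cells it stood at 184, 172, 149, 198 and 135 CPM, then 194, 166, 186 and 126 CPM, which overlap (-0.02 ± 0.15, adjusted p = 0.94). Ccna2, the cyclin of late S phase and G2, stood in macrophage-like cells at 130, 154, 108, 97.6 and 146 CPM, then 13.9, 14.7, 40.3 and 39.9 CPM, with libraries A and B lowest (-2.52 ± 0.29, adjusted p = 2.4e-05). In erythroblast-like cells Ccna2 rose by 0.50 ± 0.15 (adjusted p = 0.015), a call lost without library C (0.42).

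Birc5 (survivin) anchors Aurora B at the centromere. In hepatocyte-like cells Birc5 stood at 155, 179, 197, 172 and 130 CPM at E16.5 and 98.7, 61.2, 40.9 and 45.8 CPM at P3 (-1.06 ± 0.22, edgeR adjusted p = 0.0013), a call lost with the left-out clusters kept (-0.45). In erythroblast-like cells Birc5 stood at 408, 336, 355, 497 and 314 CPM, then 531, 713, 779 and 722 CPM (0.81 ± 0.15, adjusted p = 0.00086). Neither class overlapped between the stages. Cenpf, a kinetochore protein, stood in hepatocyte-like cells at 119, 131, 109, 100 and 96.7 CPM, then 35.6, 28.7, 26.5 and 37.3 CPM (-1.48 ± 0.16, adjusted p = 1e-05), and its sign turned with the left-out clusters kept (0.19). In erythroblast-like cells Cenpf stood at 346, 358, 204, 271 and 306 CPM, then 480, 597, 547 and 746 CPM (0.96 ± 0.17, adjusted p = 0.00078).

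Ube2c, the conjugating enzyme that works with the anaphase-promoting complex, stood in hepatocyte-like cells at 178, 216, 215, 189 and 165 CPM at E16.5 and 70.1, 25, 28.9 and 33.9 CPM at P3 (-1.88 ± 0.25, edgeR adjusted p = 4.1e-05), a call lost with the left-out clusters kept (-0.73). In endothelial-like cells Ube2c stood at 351, 443, 492, 407 and 460 CPM, then 94.0, 124, 242 and 227 CPM (-1.68 ± 0.25, adjusted p = 7e-05). Libraries A and B were again the lower pair in endothelial-like cells, while library A was the highest in hepatocyte-like cells. Nusap1, which bundles spindle microtubules, stood in macrophage-like cells at 113, 136, 113, 112 and 158 CPM, then 9.17, 13.4, 33.5 and 47.7 CPM (-2.63 ± 0.35, adjusted p = 7.3e-05).

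Mki67, the source of the Ki-67 antigen that coats mitotic chromosomes, stood in hepatocyte-like cells at 347, 324, 281, 385 and 254 CPM at E16.5 and 99.8, 68.7, 69.8 and 89.8 CPM at P3 (-1.64 ± 0.17, edgeR adjusted p = 7e-06), a call lost with the left-out clusters kept (-0.20). In macrophage-like cells Mki67 stood at 647, 770, 434, 505 and 930 CPM, then 51.7, 95.6, 159 and 205 CPM (-2.56 ± 0.33, adjusted p = 5.3e-05). In erythroblast-like cells it stood at 1247, 1388, 589, 991 and 1116 CPM, then 1360, 1843, 1751 and 2652 CPM, with library A inside the E16.5 range (0.80 ± 0.23, adjusted p = 0.012). In endothelial-like cells Mki67 stood at 414, 559, 380, 446 and 529 CPM, then 101, 270, 340 and 677 CPM, where library D lay above every E16.5 library and the test was not passed (-0.78 ± 0.33, adjusted p = 0.065).

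A direct test compared the stage change of each class with that of monocyte-like cells. Their measured summed level was nearly the same at both stages. With the erythroid RNA estimate taken off the 40 genes alone, monocyte-like cells stood at 4891 to 5654 CPM at E16.5 and 6355 to 6835 at P3. The total still held the erythroid UMIs, a larger part at E16.5, so this gap is not read as a change. With globin left out of the total and nothing subtracted, they stood at 6585 to 7890 and 6428 to 7019 CPM, which overlap. The comparison was not repeated on either scale. The test was added after the stage results were known, and all classes share the monocyte-like values. At E16.5 the leading genes of the monocyte-like cluster included Cd74 and Cst3, which at P3 led the dendritic-like class, a class that was not separate at E16.5, and the part of this in the result was not tested. The change was lower than in monocyte-like cells for 38 of 40 genes in hepatocyte-like cells (11.1% of all genes), all but Chaf1b and Pcna, and for 38 in macrophage-like cells (13.6%), all but E2f1 and Kif23. It was lower for 32 genes in endothelial-like cells (12%) and for 21 in mesenchymal-like cells (4.11%), and higher for 0 genes in these 4 classes, beside 11.8%, 11.6%, 9.43% and 8.15% of all genes. In erythroblast-like cells it was higher for 37 genes (18.3% of all genes) and lower for 0 (10.9%), with Ccne2, Gins2 and Plk1 not called. In the neutrophil class it was higher for 8 genes (10.3%) and lower for 2 (6.16%), in basophil and mast-like cells higher for 3 (8.59%) and lower for 15 (8.62%), and in the B class, with later B-like cells at P3 alone, lower for 8 (9.56%) and higher for 0 (17.4%).

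**Figure D4:**
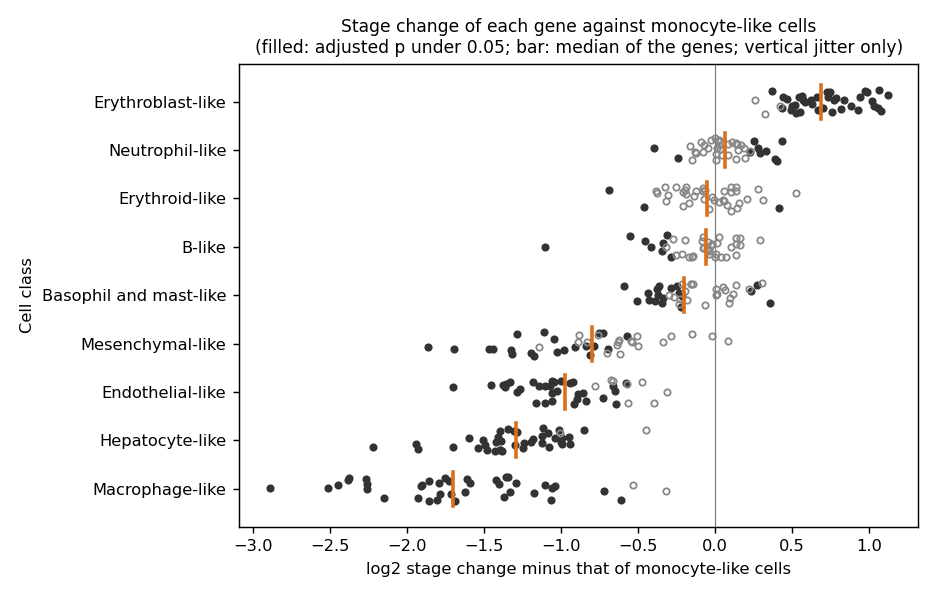
Stage change of each gene minus its stage change in monocyte-like cells (log2), by class, with 1 point per gene, filled at adjusted p under 0.05, and a bar at the median. Hepatocyte-like and macrophage-like cells lie below 0 with medians of -1.29 and -1.70, and erythroblast-like cells lie above it with a median of 0.69.

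The other genes of the cell cycle lists were counted in the same fits, and the shares of all genes are those given above for each class. In hepatocyte-like cells 30 of 57 other S genes and 57 of 75 other G2/M genes fell, with 0 and 2 higher. In macrophage-like cells 40 of 59 and 66 of 77 fell and 0 rose, and in endothelial-like cells 24 of 59 and 53 of 77 fell, with 1 and 0 higher. In erythroblast-like cells 39 of 59 other S genes and 49 of 77 other G2/M genes rose, with 2 and 3 lower. In late erythroid-like cells 51 of 59 other S genes fell and 0 rose, and in mature neutrophil-like cells 50 of 59 fell and 0 rose. The other G2/M genes went both ways there, with 22 of 77 lower and 4 higher in late erythroid-like cells and 28 of 76 lower and 4 higher in mature neutrophil-like cells.

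Inhibitors of the cell cycle were read from a list of their own. In hepatocyte-like cells 8 of 13 tested inhibitor and quiescence genes fell and 1 rose, beside 20.8% and 21.4% of all genes, and in macrophage-like cells 10 of 13 fell and 0 rose, beside 25% and 22.4%. Cdkn1c, an imprinted inhibitor of cyclin-dependent kinases, stood in hepatocyte-like cells at 809, 600, 695, 995 and 595 CPM at E16.5 and 55.2, 61.2, 69.8 and 78 CPM at P3 (-3.20 ± 0.21, edgeR adjusted p = 1.1e-07). It was lower in 8 of 9 classes, the exception being endothelial-like cells (-0.43 ± 0.24, adjusted p = 0.16). Cdkn1a, the inhibitor induced by p53, was the gene of the list that rose in hepatocyte-like cells, from 17, 9.7, 13.7, 12.7 and 13.9 CPM to 53.6, 59.9, 53.0 and 40.7 CPM (2.27 ± 0.19).

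The blood lineages were counted on the same list. Of its 13 tested genes, 3 rose and 4 fell in erythroblast-like cells, beside 22.1% and 25% of all genes, and 6 rose and 3 fell in late erythroid-like cells, beside 26.6% and 25.3%. In monocyte-like cells 0 rose and 10 fell, beside 24.7% and 25.7%. Cdkn1a rose in erythroblast-like cells too (1.99 ± 0.26). Cdkn2d, an inhibitor of Cdk4 and Cdk6, stood there at 130, 129, 101, 106 and 135 CPM at E16.5 and 237, 287, 274 and 271 CPM at P3 (1.09 ± 0.16, edgeR adjusted p = 0.00016). Cdkn1b, which encodes p27, rose in late erythroid-like cells (1.72 ± 0.22, adjusted p = 4.1e-05) although library A, at 44.1 CPM, lay inside the E16.5 range of 30.0 to 81.1 CPM. Cdkn2c fell in macrophage-like cells from 19.2, 25, 22.9, 21.9 and 29.3 CPM to 5.03, 4.04, 8.07 and 5.70 CPM (-2.31 ± 0.22).

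The D cyclins carry growth signals into the cycle, and each is given in a single class, with no comparison between classes. Ccnd3 in erythroblast-like cells stood at 203, 190, 134, 191 and 157 CPM at E16.5 and 428, 492, 888 and 513 CPM at P3 (1.69 ± 0.19, edgeR adjusted p = 2.6e-05). Ccnd2 in pro-B and pre-B-like cells stood at 40.2, 37.4, 20.3, 44.9 and 47.7 CPM, then 180, 175, 149 and 80.4 CPM (1.68 ± 0.24, adjusted p = 0.00012). Ccnd1 in hepatocyte-like cells stood at 72.2, 99.6, 96.6, 41.7 and 140 CPM, then 32.4, 32.5, 31.3 and 33.9 CPM (-1.20 ± 0.32, adjusted p = 0.0070). Their partners did not pass the test in hepatocyte-like cells, where Cdk4 changed by 0.18 ± 0.17 and Cdk6 by -0.06 ± 0.21. Foxm1, an activator of G2/M genes, fell in macrophage-like cells by 1.53 on the log2 scale.

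Genotype was tested at E16.5, with the 2 Jag1Ndr/Ndr libraries against the other 3. Of 358 pairs of class and gene, 0 were called higher and 0 lower by edgeR, where 0% of all 97156 pairs were called, and DESeq2 called 0 of the 40 genes in any class. Unadjusted p was under 0.05 for 6 of the 358 pairs and for 1678 of all pairs. These 6 pairs, named after their values were seen, were Dut in endothelial-like cells, Cdc20 and Mcm6 in hepatocyte-like cells, and Mcm2, Mcm6 and Mcm7 in mesenchymal-like cells. The median change over the 40 genes lay between -0.30 (mesenchymal-like cells) and 0.06 (erythroid class) across the 9 classes. An edgeR fit of the same form was tried on simulated counts in the erythroid class, monocyte-like cells and hepatocyte-like cells. Of genes set to a log2 change of 1 it found 25%, 91% and 44%, in that order. It found 97%, 100% and 99% of those set to 2, so smaller changes were not detectable in every class. The simulation adjusted p within a single class and changed only genes above a minimum level, so these shares need not hold for the real test.

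Basophil and mast-like cells had the most genes with both Jag1Ndr/Ndr libraries below the other 3, which was 10 of 40 genes (25%), beside 5.12% of all genes tested there and with 0% called. Their summed level did not separate the groups, at 5752 and 5744 CPM in the Jag1Ndr/Ndr libraries. It was 6211 CPM in Jag1+/+ replicate 1, 6294 in the shared library and 5736 in Jag1Ndr/+ replicate 1. The count of genes with both Jag1Ndr/Ndr libraries below was 5 of 40 (12.5%) in hepatocyte-like cells, beside 10.44%, and 5 of 40 (12.5%) in monocyte-like cells, beside 4.79%. It was 4 of 40 (10%) in endothelial-like cells, beside 6.65%, 4 of 40 (10%) in the neutrophil class, beside 4.70%, and 3 of 40 (7.5%) in mesenchymal-like cells, beside 6.03%. It was 1 of 40 in macrophage-like cells, beside 4.91%, and 0 of 40 in the erythroid and B classes, beside 9.26% and 2.59%. In the opposite direction, both Jag1Ndr/Ndr libraries lay above the other 3 for 0 or 1 of 40 genes in each of the 9 classes, beside 0.782% to 8.86% of all genes. At P3, library C, with a Jag1Ndr/Ndr label alone, held the 40 genes in hepatocyte-like cells at 701 CPM (95% Poisson interval 622 to 786), and library D, with a Jag1Ndr/+ label alone, at 902 CPM (827 to 982). The estimate of erythroid RNA was 57.7% of that level in library C and 30.0% in library D. Over 12 classes, library C was the lower in 9 and the higher in 3, which were the B class (10285 against 7677 CPM), monocyte-like cells (6975 against 6594) and T and NK-like cells (7858 against 7717). These intervals cover counting error only, and with 1 library on each side there is no test.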

How the data were processed

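Livers from 12 labelled samples were read as 9 libraries, as described above. The authors deposited raw UMI count matrices, with barcode and gene symbol lists, and totals of 30087760 to 288658950 UMIs per matrix. The submitters' processing notes name Cell Ranger 2.1.1, R 4.1.2, Seurat and mm10, while software 3.1.0 (E16.5) and 3.0.2 (P3) stand in the matrices, per the file headers. The filter on barcodes is given above. Doublets were marked with Scrublet (4.11% to 13.4% of barcodes) and left out. Within each stage, cells were clustered with scanpy 1.11.5 (2000 variable genes, 30 principal components, 15 neighbours, Leiden resolution 1), without the cell cycle lists and histone genes. Clusters were named from 10 leading genes and marker lists. Those with over 30% doublets, over 35% globin outside the erythroid classes, or markers of another class were left out, as limits set after the clusters were seen, which removed 6.59% to 12.6% of kept cells per library. Clusters of a class differ between the stages, which were clustered apart, and the E16.5 erythroid clusters split by library.

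Counts were summed per library and class (at least 20 cells, at least 3 libraries per stage), filtered with filterByExpr (minimum 10), scaled by TMM and tested with edgeR 4.0.16 in R 4.3.3, with Benjamini-Hochberg adjustment over all pairs of class and gene and a threshold of 0.05. TMM fold changes can differ from ratios of CPM where globin is abundant. The labels call the samples separate individuals. On simulated counts a stage fit of the same form found 91%, 99% and 78% of genes set to a log2 change of 1 in the erythroid, monocyte and hepatocyte classes, with 9598 to 11903 genes per class. There p was adjusted within a single class and only genes above a minimum level were changed, so these shares need not hold for the real test. DESeq2 1.42.0 and the other alternatives are in the closing section.

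The 40 genes, the lists and the tests were chosen with earlier results of these data known. Values per library are given for the gene with the highest mean CPM in each role group, the 5 genes called in the most classes, the gene with the lowest mean CPM, and named regulators outside the 40; Rrm2 was added after its value was seen. Gene starts and promoters come from RefSeq GRCm38.p6. Tpx2, Ccne2, Aurkb, Ccna2, Gins2 and Mcm4 had no promoter in the table.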

Additional observations from a re-analysis of the deposited data

Results flagged for a closer look

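In tests of the difference itself, the stage change was set against that in monocyte-like cells. How steady their level was depended on how erythroid RNA was handled, as given above. The change was lower for 38 genes in hepatocyte-like cells (11.1% of all genes) and 38 in macrophage-like cells (13.6%). It was lower for 32 in endothelial-like cells (12%) and 21 in mesenchymal-like cells (4.11%). In erythroblast-like cells it was higher for 37 genes, beside 18.3% of all genes. In the B class it was lower for 8 genes (9.56% of all genes). In basophil and mast-like cells it was higher for 3 (Cdt1, Mcm2 and Mcm6), beside 8.59% of all genes, and lower for 15, beside 8.62%. In the whole erythroid class it was higher for 1 (Mcm6) and lower for 2 (Ccne2 and Plk1), beside 14.7% and 12% of all genes. In the neutrophil class it was higher for 8 (Bub1b, Cdc20, Cdk1, Cenpa, Cenpe, Cenpf, Kif23 and Ube2c) and lower for 2 (Ccne1 and Tyms), beside 10.3% and 6.16%. The shares of the 40 genes in the erythroid class, in the higher genes of basophil and mast-like cells and in the lower genes of the neutrophil class were below those of all genes, so nothing about the 40 genes is read from them. The genes named in this paragraph were chosen after their values were seen.

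Of 58 groups of libraries checked for a value far from the rest, 1 stood out, and chance gives about 1 in 20. Dut over all cells of P3 library C stood at 421 CPM, with the other P3 libraries at 338, 344 and 347 CPM.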

How the results depend on the processing

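The fall in hepatocyte-like, macrophage-like, endothelial-like and mesenchymal-like cells (113 pairs) ranged from 100 to 119 with single libraries left out and was 112 by DESeq2. Single classes ranged from 33 to 36 (hepatocyte-like), 32 to 37 (macrophage-like), 20 to 31 (endothelial-like) and 13 to 21 (mesenchymal-like), and the 5 other classes from 32 to 40 higher and 33 to 57 lower, the latter 33 without library B. Erythroblast-like cells ranged from 27 to 30 higher, pro-B and pre-B-like cells from 9 to 13 higher, late erythroid-like cells from 22 to 26 lower and mature neutrophil-like cells from 26 to 28 lower. Against monocyte-like cells the counts were 30 to 37 (erythroblast-like, higher) and 115 to 135 (the 4 classes, lower). All cells gave 3 to 8 higher, with 8 without library A, and 6 to 11 lower, with 11 without library C. Genotype gave 0 to 0 in both directions.

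Keeping the left-out clusters, an alternative chosen after seeing the data, gave 13 lower genes in hepatocyte-like cells. Levels (CPM) were then 3839 in hepatocyte-like and 5088 in macrophage-like cells at E16.5, and 3154 and 3243 at P3. Keeping doublets in the named clusters gave 112 lower pairs in the 4 classes, with all 82 named pairs keeping their call. At 1000 UMIs and with 3 or more genes the G2/M shares at P3 were 12.2% and 13.2% in mature neutrophil-like and 91.5% and 93.9% in erythroblast-like cells. Without globin in the total, monocyte-like and mature neutrophil-like cells stood at 7288 and 3756 CPM at E16.5, erythroblast-like cells at 12309 and 17662 CPM at E16.5 and P3, and late erythroid-like cells at 11045 and 7612 CPM, no longer among the lowest classes. With erythroid RNA subtracted, 7 genes were lower in mesenchymal-like and 15 in mature neutrophil-like cells. The cause of these shifts was not tested. Of 1475 values for 82 named pairs, 44 lost the call, in 21 pairs, and 2 turned sign: Cenpf in hepatocyte-like cells with the left-out clusters kept (0.19), and Mcm7 in mature neutrophil-like cells with erythroid RNA subtracted (0.022). The call was lost with the left-out clusters kept for Birc5, Ccna2, Ccne1, Mki67, Nusap1, Slbp and Ube2c in hepatocyte-like cells and for Ccne1 and Mcm7 in macrophage-like cells. It was lost with erythroid RNA subtracted for Ccne1 in hepatocyte-like cells, Mcm7 in macrophage-like cells, Dut, Mcm2, Mki67 and Slbp in mesenchymal-like cells, and Birc5, Ccne1, Cdk1, Dut and Ube2c in mature neutrophil-like cells. Single libraries left out ended the call for Ccne1 in hepatocyte-like, Cenpf and Slbp in endothelial-like, Dut and Mki67 in mesenchymal-like, Mcm7 in macrophage-like and Ccna2 in erythroblast-like cells, and Cenpf in endothelial-like cells also lost it with cells under 2000 UMIs left out.

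No label pairs the same-numbered E16.5 samples, and correlations of their deviations ran from 0.0441 to 0.226 over 14674 genes. Jag1+/+ replicate 1 and Jag1Ndr/Ndr replicate 1 held 31.9% and 23.3% of their erythroid cells in a single cluster. The other E16.5 libraries held 0.0406% to 3.80% of theirs in it, and what lies behind this split was not tested. With the replicate block, 113 pairs were lower in the 4 classes, no count moved by over 1.5 times, and all 82 named pairs kept their call. Small classes limit precision, with 50 hepatocyte-like cells in library C.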
